A study of Mus musculus with 6 samples.

Results

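The mitochondrial ribosome (mitoribosome) translates the mRNAs encoded by mitochondrial DNA, whose products are core subunits of the respiratory chain and of ATP synthase. It has a small subunit, which binds the mRNA, and a large subunit, which joins the amino acids. Its proteins are encoded in the nucleus and imported, whereas its ribosomal RNAs, mt-Rnr1 and mt-Rnr2, are transcribed inside the organelle, so the particle depends on both genomes of the cell. The genes described here are those whose symbol begins with Mrpl or Mrps followed by a digit, the names of large and small subunit proteins, with pseudogene names left out. Of 13008 genes in the deposited table, 78 met this rule, 49 with Mrpl and 29 with Mrps symbols.

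Their transcripts were measured by RNA-seq in F4/80+/Ly6CLow macrophages (MPs), the class associated with repair, sorted from hindlimb muscles, by the study's account through a gate for GFP as well, on day 5 after cardiotoxin, a snake toxin that injures muscle. The samples were 3 Control and 3 Cripto KO samples from C57BL/6J mice labelled male and 3 months old. Control samples are labelled wild type, and by the study's methods such mice carried Tg:LysMCre and the R26mTmG reporter, which turns GFP on where Cre has acted. Cripto KO samples are labelled Tg:LysMCre::Cripto-/-, and by those methods combined the same Cre and reporter with a floxed allele of Cripto, a GPI-linked co-receptor of TGF-beta family ligands. LysMCre acts in the myeloid lineage, so that other cells of the muscle keep Cripto, and deletion in sorted MPs was not complete by the study's account. Cripto itself (gene symbol Tdgf1) was not analysed here. The sources used here do not give whether each sample came from 1 animal or from a pool, and p-values measure the spread between these samples.

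The libraries held between 12688968 and 15659847 recovered reads. The MP markers were high in every library, with deposited values, in reads per 1000000 reads of a normalized library (RPM), between 1065 and 1384 for Adgre1 (F4/80) and between 1566 and 1815 for Csf1r. Control replicate 1 stood apart in Xist (171 RPM, against 0.885 or less in the other 5), against its male label. Control replicate 2 stood apart in Lyz2, the gene that carries the Cre in LysMCre mice (11066 RPM, against 21.2 to 28.3 in the other 5). All 8 fibroblast markers were higher in Cripto KO samples, with a summed level of 521 to 546 in Control and 614 to 670 in Cripto KO samples, 6 of them with an unadjusted p under 0.05 and none below 0.05 after adjustment. The 7 measured muscle fiber markers summed to 34.2 to 78.7 in Control and 13.1 to 53.1 in Cripto KO samples, with 6 of them higher in Control, 5 with an unadjusted p under 0.05 and none after adjustment. Of 6 neutrophil markers 3 (S100a9, Camp and Ngp) were at 3 reads or fewer in every library. Fewer cells of a type and less RNA per cell cannot be told apart in such bulk samples.

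The transcripts of the mitoribosome protein genes summed to similar levels in both groups, within the spread between samples. The 3 Control samples reached sums of 1674, 1715 and 1690 RPM, against 1724, 1656 and 1678 RPM in the Cripto KO samples, in the order of their replicate numbers, which every listing below keeps. The groups overlapped, with means of 1693 ± 20.8 in Control against 1686 ± 34.9 in Cripto KO samples (SD, n = 3 each). The 78 genes took between 0.159% and 0.173% of the recovered reads of a library. The 51 genes of large subunit proteins summed to 1165 ± 20.8 in Control, against 1163 ± 28.0 in Cripto KO samples (SD, n = 3 each). For the 26 genes of small subunit proteins these sums were 506 ± 2.34 and 501 ± 9.40 (SD, n = 3 each).

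**Figure D1:**
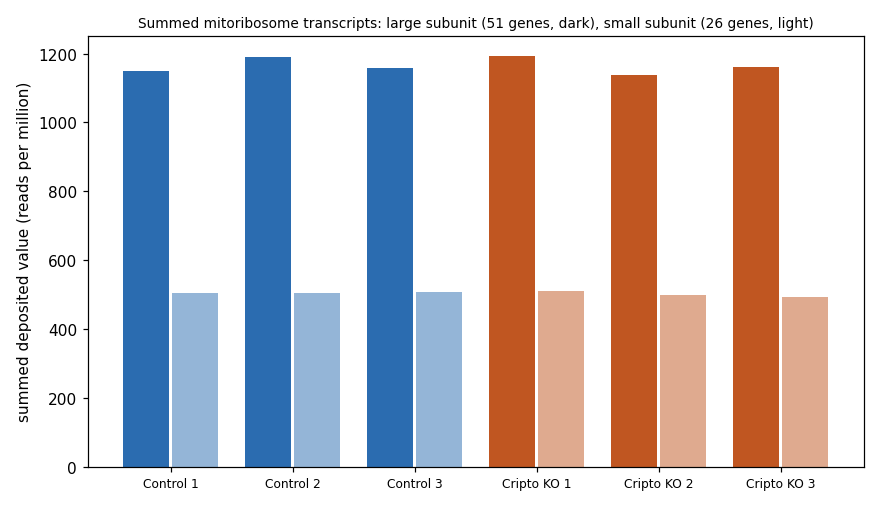
Summed deposited values, in RPM, of the 51 large subunit genes (dark bars) and the 26 small subunit genes (light bars) in each of the 3 Control (blue) and 3 Cripto KO (orange) samples. The bars start at 0, and the large subunit sums lie between 1136 and 1192 in all 6 samples.

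Gene by gene, none of the 78 passed an adjusted p-value of 0.05 in limma, and the smallest was 0.51; across the table it was passed by 17 genes, or 0.131%. An unadjusted p under 0.05 was found for 2 of the 78, and for 1117 of 13008 genes, or 8.59%. edgeR on the recovered reads gave 3 members with an unadjusted p under 0.05, beside 1102 of 13008 genes, and also 0 after adjustment, beside 17. The groups did not overlap for 5 members (6.41%), 2 higher in Control (Mrpl35 and Mrps14) and 3 higher in Cripto KO samples (Mrpl50, Mrpl34 and Mrps5); in the whole table this held for 14.5% of genes. The median log2(Control/Cripto KO) was 0.0086 over the members, with 41 above and 37 below 0, beside 0.011 over all genes. The median size of the log2 difference, whatever its sign, was 0.065 over the members and 0.121 over all genes. Without Control replicate 1, the library with Xist, 4 members had an unadjusted p under 0.05, beside 1360 of 13008 genes. Without Control replicate 2, the library with Lyz2, 1 member had, beside 1037 genes. After adjustment no member passed in either fit.

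A p that misses the threshold does not show that a level was the same, so the intervals matter here. For 68 of the 78 genes the 95% confidence interval of log2(Control/Cripto KO) lay within 0.5 on either side of 0, and for 77 it lay within 1. The median half-width of the interval was 0.257. The tightest interval was that of Mrpl24, a protein at the exit of the peptide tunnel, with a log2 difference of 0.018 (95% interval -0.14 to 0.18). Of the exon bases of Mrpl24, 26.3% also lie in exons of Rrnad1, on the opposite strand. The widest interval was that of Mrpl23, which also lies at the tunnel exit, with -0.47 (-1.77 to 0.84).

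**Figure D2:**
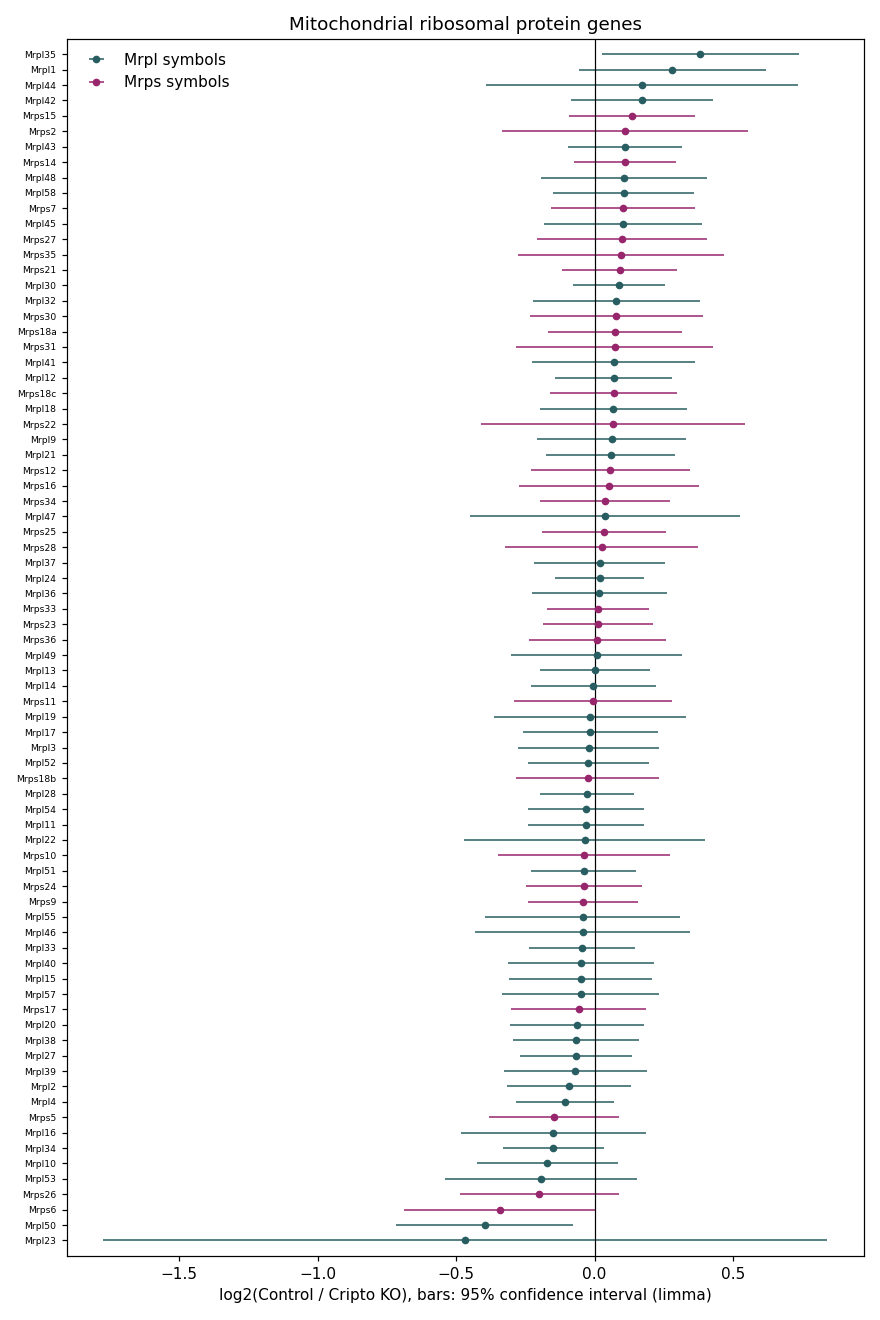
The log2(Control/Cripto KO) of each of the 78 genes on the x axis, with its 95% confidence interval from limma, sorted from the most positive at the top (Mrpl symbols green, Mrps symbols purple). Intervals of 76 genes include 0, those of Mrpl50 and Mrpl35 do not, and the interval of Mrpl23 is the widest.

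The 12 members with the smallest unadjusted p were Mrpl50, Mrpl35, Mrps6, Mrpl1, Mrpl34, Mrps26, Mrpl10, Mrpl42, Mrps5, Mrpl4, Mrps14 and Mrps15. Mrpl50, a large subunit protein without a bacterial counterpart (chr4:49512596-49521093, minus strand, GRCm38), stood at 7.69, 8.51 and 7.14 RPM in Control, against 11.1, 9.17 and 10.4 in Cripto KO samples. Every Cripto KO sample was above every Control sample, with a log2 difference of -0.40 (SE 0.141, unadjusted p = 0.0203, adjusted p = 0.51 in limma). Mrpl35, the counterpart of bacterial L35 (chr6:71812997-71826969, minus strand), went the other way, at 12.1, 14.7 and 12.4 in Control, against 10.95, 8.18 and 11.2 in Cripto KO samples. Here every Control sample was above every Cripto KO sample, with a log2 difference of 0.38 (SE 0.157, unadjusted p = 0.0376, adjusted p = 0.547 in limma). Neither call survived adjustment over the table, and the pair belongs to the same subunit with opposite signs.

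Mrps6, the small subunit counterpart of bacterial S6, stood at 14.6, 12.6 and 11.8 in Control, against 13.4, 18.7 and 17.7 in Cripto KO samples. Cripto KO replicate 1 lay within the Control range and the other 2 above it (log2 difference -0.34, 95% interval -0.69 to 0.0019). Mrpl1, a protein of the L1 stalk, stood at 10.1, 14.0 and 11.9 in Control, against 9.11, 9.59 and 10.7 in Cripto KO samples, and the groups overlapped through Control replicate 1. Mrpl34, the counterpart of bacterial L34, stood at 25.4, 24.7 and 25.9 in Control, against 28.6, 28.2 and 27.5 in Cripto KO samples. Its groups were apart by a small margin, with a log2 difference of -0.15 (95% interval -0.33 to 0.032). Mrps26, a mitochondria-specific small subunit protein, stood at 19.8, 20.2 and 21.8 in Control, against 28.1, 20.3 and 23.2 in Cripto KO samples, so that Cripto KO replicate 2 lay among the Controls.

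**Figure D3:**
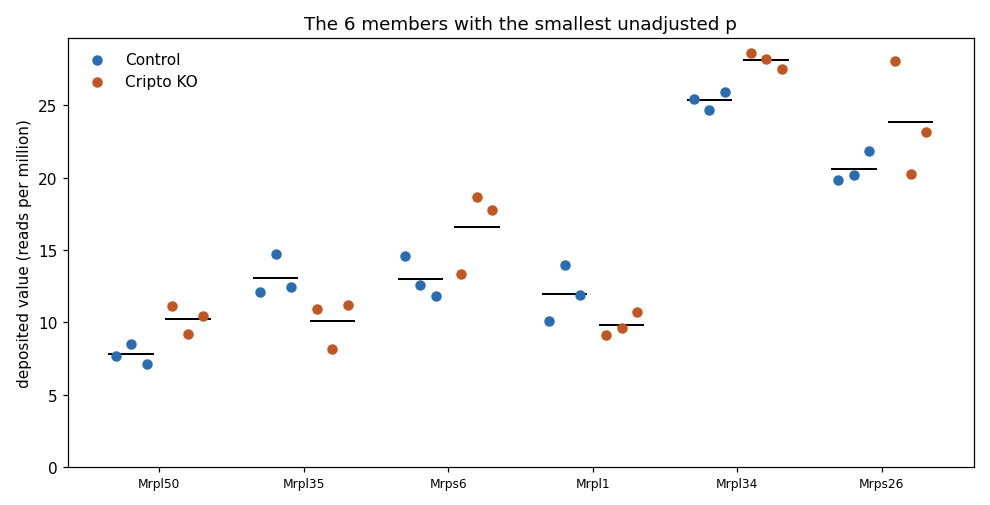
Deposited values, in RPM, of the 6 members with the smallest unadjusted p in the 3 Control (blue) and 3 Cripto KO (orange) samples, with black lines at the group means. The groups are apart for Mrpl50, Mrpl35 and Mrpl34 and overlap for Mrps6, Mrpl1 and Mrps26.

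For the other 6 of these 12 genes the log2 difference lay between -0.17 (Mrpl10, of the L7/L12 stalk base) and 0.17 (Mrpl42). Mrps5, at the mRNA entry of the small subunit, was 13.6 ± 0.60 in Control, against 15.1 ± 0.59 in Cripto KO samples (SD, n = 3 each). Mrps14, the counterpart of bacterial S14, was 31.4 ± 0.66 in Control, against 29.1 ± 1.49 in Cripto KO samples (SD, n = 3 each). These groups did not overlap, while those of Mrpl10, Mrpl42, Mrpl4 and Mrps15 did.

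By structural role the medians stayed close to 0. Over the 46 genes classed here as having a bacterial counterpart, Mrps18c among them, the median log2 difference was -0.010, with 21 above 0. Over the 31 classed as mitochondria-specific, Mrps18a and Mrps18b among them, it was 0.019, with 19 above 0. The 9 proteins of the central protuberance, which contacts the small subunit, had a median of -0.043 and a range from -0.067 (Mrpl27) to 0.11 (Mrpl48). The 5 stalk proteins, which help move tRNA and recruit translation factors, had a median of -0.031, with Mrpl12, the mitochondrial L7/L12, at 39.3 ± 3.83 in Control, against 37.4 ± 1.87 in Cripto KO samples (SD, n = 3 each). The 7 proteins at the tunnel exit had a median of -0.016, and Mrpl45, which anchors the ribosome to the inner membrane, was 22.1 ± 2.05 in Control, against 20.7 ± 2.79 in Cripto KO samples (SD, n = 3 each). No member of the 3 structural lists had an unadjusted p under 0.05 or groups that did not overlap.

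In 3 members the symbol does not match the place of the protein. Mrps18a and Mrps30 are large subunit proteins in spite of their names, and had log2 differences of 0.074 (95% interval -0.17 to 0.32) and 0.078 (-0.23 to 0.39). Mrps36 is a subunit of the alpha-ketoglutarate dehydrogenase complex, an enzyme of the citric acid cycle, and had a log2 difference of 0.010 (-0.24 to 0.26). The groups overlapped for all 3 of them.

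Although the members other than Mrps36 share 1 particle, the transcript levels of the members were far from equal. Per kilobase of the median length of a gene's protein-coding transcripts, the mean level ran over a 64.9-fold range, from 1.47 to 95.4, with a median of 15.2. The SD of log2 level per kilobase was 1.35 over the 78 members and 2.69 over 11725 genes with such a length. The 5 highest by this measure, chosen after their values were seen, were Mrpl52, Mrps21, Mrpl33, Mrpl30 and Mrpl24. The levels per kilobase of the first 3 overlapped over the 6 samples (86.2 to 106 for Mrpl52, 86.4 to 105 for Mrps21 and 79.1 to 92.3 for Mrpl33). Those of Mrpl30 (63.5 to 71.8) and Mrpl24 (56.9 to 63.0) lay below them. At the low end, also chosen after their values were seen, were Mrpl1, Mrpl35, Mrpl19, Mrps35 and Mrpl47, of which only Mrpl47 (1.13 to 1.76) stood below the range of its neighbour Mrps35 (2.07 to 2.75). The order depends on the transcript length taken, which ran from 440.5 to 6073 bases among members, since the isoform in use was not measured here.

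The number of reads, which sets the counting error and is no order of levels, ran from 19 to 1101 per gene and sample. Deposited values were highest for Mrpl24, Mrpl30, Mrpl28, Mrpl52 and Mrps21 (74.1 RPM on average for Mrpl24) and lowest for Mrpl23, Mrpl47, Mrps22, Mrps31 and Mrpl44 (4.82 RPM for Mrpl23). All 10 had an interval of log2(Control/Cripto KO) that included 0. Mrpl44, with the third largest difference toward Control, stood at 7.40, 10.8 and 5.67 RPM in Control, against 8.03, 5.42 and 7.27 in Cripto KO samples. Control replicate 2 alone was above the others, and the log2 difference was 0.17 (95% interval -0.39 to 0.74).

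Within a gene the levels were steady. The highest sample was less than 1.5 times the lowest for 69 of the 78 genes, and less than 2 times for 77. Mrpl51 moved least, by 1.09-fold. The exception was Mrpl23, at 6.29, 1.48 and 4.53 RPM in Control, against 4.35, 2.65 and 9.62 in Cripto KO samples, a 6.52-fold range. Both the highest and the lowest value were single libraries, one of each genotype.

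Mrpl23 (chr7:142532686-142540747, plus strand) has a processed pseudogene, Mrpl23-ps1 (chr2:74591330-74591909, minus strand), an intronless copy of its mRNA in the genome. Over the 438 bases of the coding sequence the 2 transcripts were 100% identical, so that a read within it cannot be placed in one rather than the other. The first 60 bases of that sequence, from the start codon, are shown because they are the same in gene and copy; the annotation is GENCODE mouse release 21, and no base is in capitals since none differs.
Mrpl23: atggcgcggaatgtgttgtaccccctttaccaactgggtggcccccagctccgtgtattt
Mrpl23-ps1: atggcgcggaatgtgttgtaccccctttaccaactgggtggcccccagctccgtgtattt

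The pseudogene carried most of the reads assigned to the pair. Mrpl23-ps1 stood at 34.1, 41.5 and 36.4 RPM in Control, against 35.02, 39.3 and 31.3 in Cripto KO samples, and was lowest where Mrpl23 was highest. The share of the pair assigned to Mrpl23 was 15.6%, 3.43% and 11.1% in Control, against 11.05%, 6.32% and 23.5% in Cripto KO samples. The sum of both was 40.4, 43.0 and 41.0 in Control, against 39.4, 41.98 and 40.9 in Cripto KO samples, a range of 1.09-fold. With the pair added up, the log2 difference was 0.024 (95% interval -0.14 to 0.19), in place of -0.47 (-1.77 to 0.84) for Mrpl23 alone.

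A second member also has a close copy. Mrpl48, of the central protuberance (chr7:100545751-100608301, minus strand), and its processed pseudogene Mrpl48-ps (chr4:88599175-88599810, minus strand) were identical at 98.1% of 633 aligned coding bases and differed at 12. The stretch of 60 bases with the most differences (bases 349 to 408 of the Mrpl48 coding sequence) is shown with its 5 differing bases in capitals, since reads that cover none of the 12 fit both.
Mrpl48: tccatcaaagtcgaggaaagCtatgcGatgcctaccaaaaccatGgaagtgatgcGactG
Mrpl48-ps: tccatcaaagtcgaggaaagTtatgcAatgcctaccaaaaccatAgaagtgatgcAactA

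Mrpl48 stood at 33.5, 38.2 and 30.1 RPM in Control, against 27.9, 37.5 and 29.5 in Cripto KO samples. Mrpl48-ps was at 0 reads in Control replicates 1 and 2 and in Cripto KO replicate 2, and at 3.47, 1.87 and 2.72 in Control replicate 3 and Cripto KO replicates 1 and 3. Those with reads for the copy had the 3 lowest values for Mrpl48. Adding the copy changed the range over the 6 samples from 1.37-fold to 1.28-fold. The summed pair differed by 0.085 on the log2 scale (95% interval -0.16 to 0.33).

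Mrps6 shares bases with genes that are not copies of it. On chr16 (plus strand), 19.9% of its exon bases also lie in exons of Slc5a3, a myo-inositol transporter, or of Gm49711. Of the distinct 31-base words in its protein-coding transcripts, 33.8% also occur in transcripts of Gm49711 and 15.8% in those of Slc5a3. Slc5a3 stood at 12.6, 12.2 and 13.7 RPM in Control, against 15.0, 23.2 and 23.1 in Cripto KO samples, with a log2 difference of -0.64 (unadjusted p = 0.0043, adjusted p = 0.407 in limma). The 2 samples high for Mrps6 were the 2 that were high for Slc5a3; how far shared reads carry the one into the other was not tested.

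Sharing of this kind was also counted for the other members, while how much genes outside the set share was not tested. Of the 78 genes, 35 shared over 10% of their 31-base words with another annotated gene, 6 over 50%, and 22 none. The 35 include members, such as Mrpl22, Mrpl42 and Mrps10, that shared no words with any gene of the deposited table. The words came from the GENCODE annotation named above, whereas the study mapped its reads to release 91 of the mouse transcriptome. All 31-base words of the protein-coding transcripts of Mrpl53 occur in Gm42688 (10.6 RPM on average for Mrpl53 and 2.98 for Gm42688). Mrps25 shared 74.6% with Nr2c2 and Mrps34 shared 55.6% with Mapk8ip3, both on the opposite strand. Reads from a kit that does not keep strand cannot separate these. Nr2c2 averaged 5.76 RPM (25.8 for Mrps25) and Mapk8ip3 52.4 RPM (20.4 for Mrps34). Mrpl27 shared mostly with Gm6304, which the deposited table lacks, and Mrps18b with Gm16279 (0.632 RPM on average, 13.2 for Mrps18b). Levels of these genes are therefore uncertain, to a degree that was not tested. Their log2 differences lay between -0.19 (Mrpl53) and 0.038 (Mrps34). The remaining member over 50% was Mrpl23, described above, at -0.47. Mrpl24 and Mrpl19 shared 33.4% with Rrnad1 and 39.0% with Gcfc2, both on the opposite strand. Mrpl33 shared 33.3% with Gm43809, on the same strand. The same limit holds for them.

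**Figure D4:**
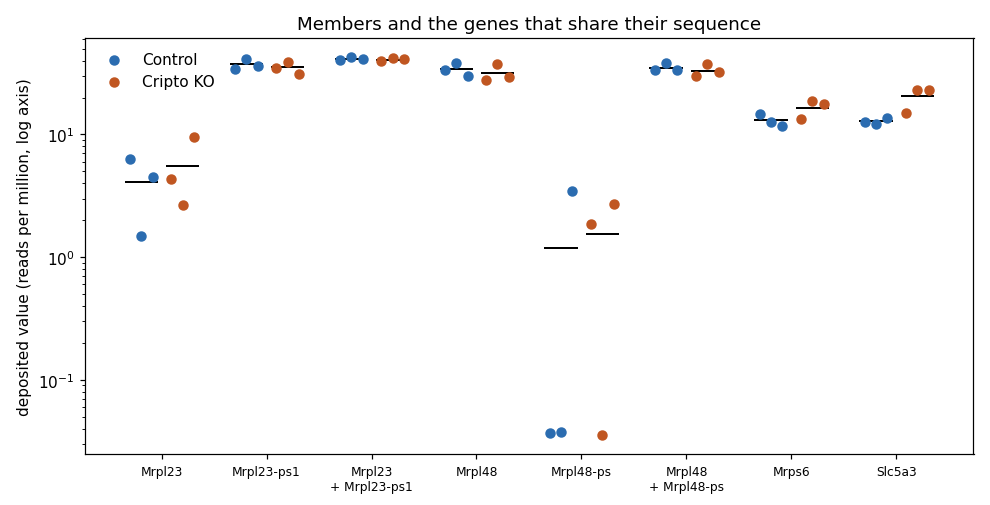
Deposited values on a log axis, in RPM, of Mrpl23, Mrpl48 and Mrps6 and of genes that share their sequence, with the sums of both pseudogene pairs (Control blue, Cripto KO orange, black lines at group means). Mrpl23 spreads over a 6.52-fold range and its sum with Mrpl23-ps1 over 1.09-fold; the 3 lowest points of Mrpl48-ps are samples with 0 reads.

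Promoters were read for the 69 members found in RefSeq's table of starts (GRCm38.p6), from 250 bases before to 50 bases after the start. Motifs of 3 factors known for genes of mitochondrial function were searched on both strands, counting each apart: CGCATGCG for NRF1, CCGGAAGT for ETS factors such as GABP, and AAGATGGCG for YY1. A gene was counted if any of its promoters held the letters. At least 1 motif was found for 26 of the 69, or 37.7%, against 16.4% of 9537 genes in the table and 7.58% of all 27025 genes with a promoter. The NRF1 letters were found for 10.1% of the members (4.42% of genes in the table and 2.07% of all). The ETS letters were found for 17.4% (9.38% and 4.31%) and the YY1 letters for 11.6% (3.71% and 1.64%). For example, Mrpl10 and Mrpl17 held the NRF1 letters, Mrps26 the ETS letters, and Mrpl35 and Mrpl42 the YY1 letters just after the start. A match is only a match of letters.

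The bases before the start of Mrpl50 and Mrpl35, the members with an unadjusted p under 0.05, are shown as far as no annotated exon covers them, at chr4:49521094-49521163 and chr6:71823811-71823864, both on the minus strand. The Mrpl35 stretch lies inside the annotated bounds of Mrpl35, before a RefSeq start within the gene, and not upstream of the whole gene. Neither stretch holds any of the searched letters, so nothing is in capitals.
Mrpl50: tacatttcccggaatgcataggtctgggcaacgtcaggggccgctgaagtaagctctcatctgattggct
Mrpl35: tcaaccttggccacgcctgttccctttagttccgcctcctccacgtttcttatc

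The rRNA partners of these proteins had higher values in every Cripto KO sample, and neither passed adjustment in limma. mt-Rnr1, the small subunit rRNA, stood at 155, 137 and 147 RPM in Control, against 187, 200 and 202 in Cripto KO samples. The groups were apart (log2 difference -0.43, 95% interval -0.58 to -0.27), with an adjusted p of 0.0792 in limma. mt-Rnr2, the large subunit rRNA, stood at 294, 273 and 295 in Control, against 377, 393 and 339 in Cripto KO samples. Its groups were also apart (log2 difference -0.36, 95% interval -0.53 to -0.19), with an adjusted p of 0.222 in limma. The averages of both rRNAs over all samples, 171 and 329 RPM, lay below that of mt-Co1, an mRNA of mitochondrial DNA (3325 RPM). How fully the libraries captured rRNA was not tested.

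Over the 15 rRNAs and mRNAs of mitochondrial DNA the median log2 difference was -0.44, 13 had groups that did not overlap, all higher in Cripto KO samples, and 2 rose in Cripto KO samples at an adjusted p under 0.05 in limma. Those 2 were mt-Nd1, of complex I (439 ± 11.7 in Control, 648 ± 53.5 in Cripto KO samples, SD, n = 3 each; adjusted p = 0.0313), and mt-Co2, of complex IV (985 ± 94.3 and 1606 ± 165; adjusted p = 0.0491). Both kept their sign in all 18 alternatives, and the call held in edgeR (adjusted p = 0.027 for mt-Nd1 and 0.0281 for mt-Co2) and in DESeq2 (3.56e-08 and 1.40e-09). In limma the call of mt-Nd1 was lost without Control replicate 2 (adjusted p = 0.0818), Control replicate 3 (0.205), Cripto KO replicate 2 (0.144) or Cripto KO replicate 3 (0.185). That of mt-Co2 was lost without any 1 library other than Cripto KO replicate 1 (0.0623 to 0.274). With eBayes without its trend both were lost (0.296 and 0.317), and mt-Co2 also with either pseudocount, median centring or quantile normalization (0.052 to 0.0741). DESeq2 put mt-Rnr1 at an adjusted p of 0.00043 and mt-Rnr2 at 0.00679, the lowest values among the 18 alternatives. Over the whole table DESeq2 passed 71 genes at an adjusted p under 0.05, against 17 in limma and 17 in edgeR. These transcripts all come from 1 small genome and are not independent of each other. The difference between them and the nuclear-encoded proteins was not tested. The fibroblast markers given above were also higher and most muscle fiber markers lower in Cripto KO samples. The cells were sorted for F4/80 and, by the study's account, GFP, and the part of other cells in these values was not tested.

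The other nuclear genes of mitochondrial gene expression gave no call after adjustment. The 5 mitoribosome proteins with other symbols (Dap3, Ptcd3, Chchd1, Aurkaip1 and Gadd45gip1) had a median of -0.048 and a range from -0.095 to 0.024. The 24 assembly factors had a median of -0.039, with none below an unadjusted p of 0.05. Among 16 translation factors the median was -0.0029, and Oxa1l, which inserts new chains into the inner membrane, had an unadjusted p of 0.0245. It stood at 56.4, 71.0 and 65.0 in Control, against 54.0, 53.6 and 54.1 in Cripto KO samples (log2 difference 0.24, adjusted p = 0.523 in limma). The 16 measured mitochondrial aminoacyl-tRNA synthetases, which charge tRNAs in the organelle, had a median of -0.061 and no unadjusted p under 0.05. Of the 10 genes of mitochondrial DNA maintenance and transcription 8 had values below 0, with a median of -0.13. Polg2, the accessory subunit of the mitochondrial DNA polymerase, was 8.83 ± 0.83 in Control, against 11.1 ± 0.92 in Cripto KO samples (SD, n = 3 each; unadjusted p = 0.0342, adjusted p = 0.536 in limma). The 9 measured nuclear regulators, among them Nrf1, Gabpa and Ppargc1b, had a median of -0.12, with 7 below 0 and no unadjusted p under 0.05.

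**Figure D5:**
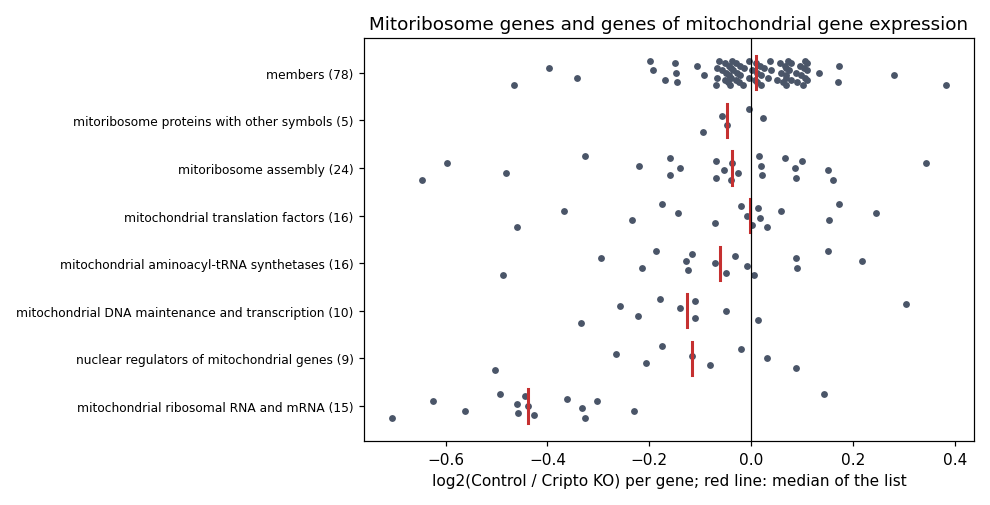
The log2(Control/Cripto KO) of each gene on the x axis for the 78 members and 7 lists of genes of mitochondrial gene expression, 1 point a gene, with a red line at the median of each list. The members centre on 0.0086 and the 15 transcripts of mitochondrial DNA on -0.44.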

How the data were processed

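RNA-seq of 3 Control and 3 Cripto KO samples was analyzed. The authors trimmed reads with Cutadapt 1.7.1, quantified them with RSEM 1.2.20 on GRCm38 and normalized them with limma; libraries came from a kit that does not keep strand. Per gene and sample, the authors deposited a normalized signal (the read count with 0.5 added, scaled to 1000000 of the normalized library size), and 100% of 78048 values gave whole reads within 0.01. Groups were compared in limma 3.58.1 (R 4.3.3, lmFit, eBayes with trend, log2 values, no pseudocount) over all 13008 genes with Benjamini-Hochberg adjustment. The fit was also run on simulated data with changes larger than those of the members, which does not bear on differences this small. Alternatives included edgeR 4.0.16 and DESeq2 1.42.0. Positions and transcripts came from GENCODE mouse release 21. The members and gene lists were chosen with earlier results of these data known. Named were members with an adjusted p under 0.05, the 12 with the smallest p, the 5 highest and lowest by level, the 3 largest differences each way, stalk and tunnel exit proteins, misnamed members, and companion genes with an unadjusted p under 0.05 or, for the mitochondrial transcripts, an adjusted one, and both rRNAs. All other genes named, such as Mrpl48, Mrpl51 and the genes that share sequence with members, were chosen after their values were seen. Pairing by replicate number is described with the alternatives.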

Additional observations from a re-analysis of the deposited data

How the results depend on the processing

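No alternative brought a member past an adjusted p of 0.05: 0 members passed with a pseudocount (0.5 or 1), with genes limited to mean values over 1, with median centring or quantile normalization, with eBayes run robust or without its trend, with voom, edgeR and DESeq2, with the replicate block, and without each library in turn. Between 0 and 4 members had an unadjusted p under 0.05, while among all genes of these fits 741 to 1360 did. The median over the members stayed between -0.0079 and 0.017. edgeR with its own expression filter and the added pseudogene pairs were chosen after seeing the data. By the numbers of the deposited columns, same-numbered samples did not deviate together (correlations -0.21, -0.0052 and -2.46e-05, other combinations -0.153 to 0.139). No Control sample correlated best with its own number, so these numbers were not taken to pair them. With the replicate block 1 member had an unadjusted p under 0.05, beside 928 of 13008 genes, and 0 passed after adjustment. The median over the members was then 0.0086, and the adjusted p of both mt-Nd1 and mt-Co2 was 0.115 in limma. Signs turned for log2 differences that were small or had wide intervals. Without 1 library the log2 difference ran from -0.019 to 0.056 for Mrpl24, -0.058 to 0.0020 for Mrpl28, -0.076 to 0.051 for Mrpl52, -0.89 to 0.15 for Mrpl23, -0.092 to 0.23 for Mrpl47, -0.13 to 0.20 for Mrps22, -0.021 to 0.13 for Mrps31, -0.073 to 0.39 for Mrpl44, -0.020 to 0.15 for Mrps18a, -0.015 to 0.22 for Mrps30, -0.051 to 0.088 for Mrps36, -0.067 to 0.013 for Mrpl11, -0.13 to 0.038 for Mrpl17, -0.14 to 0.13 for Mrpl22 and -0.0075 to 0.19 for Mrpl45. Quantile normalization gave -0.024 for Mrpl24. Mrps36 was -0.0032 with it, -0.0043 with voom, -0.00092 with edgeR and -0.0029 with the filter of edgeR. Adding Mrpl23-ps1 gave 0.024 for Mrpl23.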
